A study of Mus musculus with 37 samples.

Results

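The comparison described here set 3 cultures of bone marrow from tumor-bearing mice that had lost Trp53 (single knockout, SKO BMT) against 3 cultures of control marrow (control BM). Its 6 libraries were the SKO BMT and control BM columns of the second set of RNA-seq libraries, out of 21 libraries in that set and 37 in the series. The study asked which cells of the marrow give rise to osteosarcoma, a malignant bone tumor, and what changes in them before and after a tumor forms. In the SKO mice an Osterix1-Cre transgene, which is active in osteoblast progenitors, removed Trp53, and a Rosa26 LSL-tdTomato reporter marked the cells in which Cre had acted. The double knockout (DKO) lost Wwox together with Trp53 in the same way. SKO BMT cells were flushed from femurs and tibiae when a tumor was found, SKO yBM cells came from young mice without a tumor, and SKO tumor cells came from the bone tumor itself. Control BM came from mice that kept both genes, which the sources describe variously as wild type, as lacking Cre and as carrying Cre. The methods describe culture for 3 passages, by which time tdTomato-positive cells dominated, and RNA from whole cultures. No age was given for the libraries compared here. The labels leave unsaid whether libraries of 1 group are from different animals, and p-values therefore reflect the spread among libraries, which may be technical.

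Trp53 encodes p53, a transcription factor that responds to DNA damage and other stress by switching on genes that stop the cell cycle, repair DNA or end in cell death. Osteoblast progenitors are mesenchymal cells of bone that lay down the collagen matrix and mineralize it. Marrow plated on plastic gives a mixed culture in which adherent mesenchymal cells grow beside macrophages, which also adhere. The values are TPM, a length-scaled share of all transcripts in a library, which correct for transcript length and library size. Differences are on the log2(TPM + 1) scale, SKO BMT minus control BM, with the standard error (SE), and genes with an adjusted p under 0.05 in limma, a linear model that shares information across genes and was fitted to all 7 groups of the set, count as called.

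The targeted gene behaved as its label says. Trp53 was at 35.9, 65.9 and 74.9 TPM in the control BM libraries and at 4.64, 4.56 and 2.77 TPM in the SKO BMT libraries, which is 7.88%, 7.74% and 4.71% of the control mean. The groups did not overlap, and Trp53 fell by 3.54 (SE 0.49, adjusted p = 5.24e-05). Wwox, an oxidoreductase with WW domains that should be intact in SKO cells, was at 11.8 TPM in SKO BMT 1 but at 0.102 and 0.0857 TPM in SKO BMT 2 and SKO BMT 3, against 2.97 to 4.05 TPM in control BM. The libraries labelled SKO BMT 2 and SKO BMT 3 therefore go against their label for Wwox, and they sit at the level of the libraries labelled DKO BMT (0.0164 to 0.3 TPM). Results are given below for all 3 libraries labelled SKO BMT and, for part of the counts, also without these 2. That leaves SKO BMT 1 alone and assumes that it varies like the other groups. The remaining counts are not given for SKO BMT 1 alone. Y-linked genes moved with the groups as well. Ddx3y was at 20.7 to 36.3 TPM in control BM and at 1.46, 0.023 and 0 TPM in SKO BMT, while Xist was at most 0.0127 TPM in control BM and at 0.00392, 6.54 and 27 TPM in SKO BMT. SKO BMT 1 was low in both genes, so these values leave its sex unclear. No SKO BMT library held Ddx3y at a control level. Sex and genotype therefore cannot be told apart in these 6 libraries, and the sex-linked genes are left out of the named genes. The mitochondrial genome took 32.5%, 13.6% and 9.07% of all TPM in control BM 1 to 3 and 7.39%, 8.40% and 20.1% in SKO BMT 1 to 3. No library was a copy of another: the closest pair of the set, control BM 2 and control BM 3, correlated at 0.9689 over log2 values.

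Of 14458 genes tested, 1931 were called (13.4%), 723 higher in SKO BMT (5% of the genes tested) and 1208 lower (8.36%). A further measure needs no model: in 34.6% of the genes the 3 values of one group all lay beyond the 3 values of the other, 17.8% with SKO BMT higher and 16.8% with SKO BMT lower. The median difference over all genes tested was 0.07. Among the genes named below, Wnt7b met the filter of 1 TPM in 3 libraries through the SKO BMT libraries alone. Fcrls, Tnf, Mmp8 and Gdf6 met it through the control BM libraries alone, so that these 5 had to differ to be tested at all. Others reached 1 TPM in too few libraries outside control BM to pass without it. Among these were Marco, C1qa, Pf4, Tyrobp, Laptm5, Clec4n, Ptprc, Adgre1, Saa3 and Cxcl2. Of the called genes, 37.4% were higher in SKO BMT, a share that became 55.4% after quantile normalization, with 3447 genes called, and 14.9% without control BM 1, with 1274 called. Median-ratio scaling called 2925 genes and moved the median over all genes to -0.05. With SKO BMT 1 alone, 984 genes were called, 265 higher and 719 lower.

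**Figure D1:**
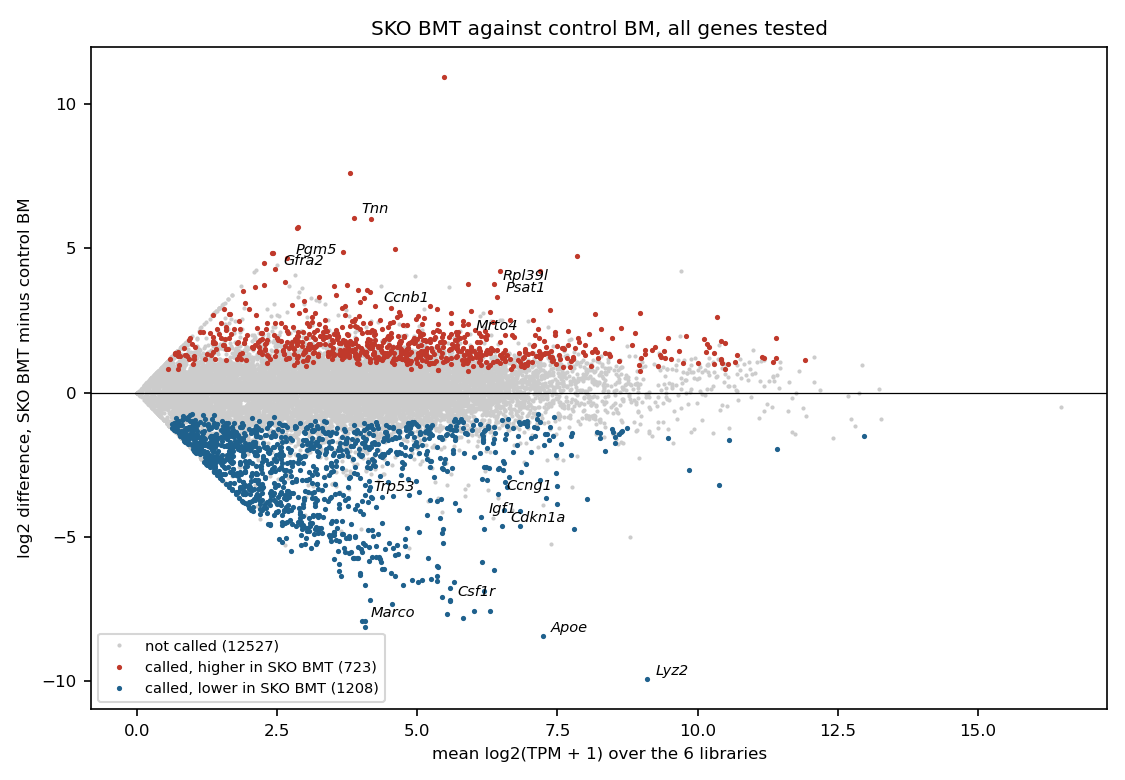
Log2 difference between SKO BMT and control BM (vertical axis) against the mean log2(TPM + 1) over the 6 libraries (horizontal axis), 1 point for each of the 14458 genes tested, with the 723 genes called higher in red and the 1208 called lower in blue. The blue points reach below -9 at Lyz2, and among the labelled red points Tnn stands highest at 6.07. The 2 unlabelled red points above 7 are processed pseudogene models listed at 0 in every control BM library.

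Principal component analysis of the 500 most variable genes gave a first component with 41% of the variance, which separated control BM (74.1 to 77.5) from SKO BMT 1 (-13.7) and SKO BMT 3 (-20.8). SKO BMT 2 lay between them at 27.3.

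**Figure D2:**
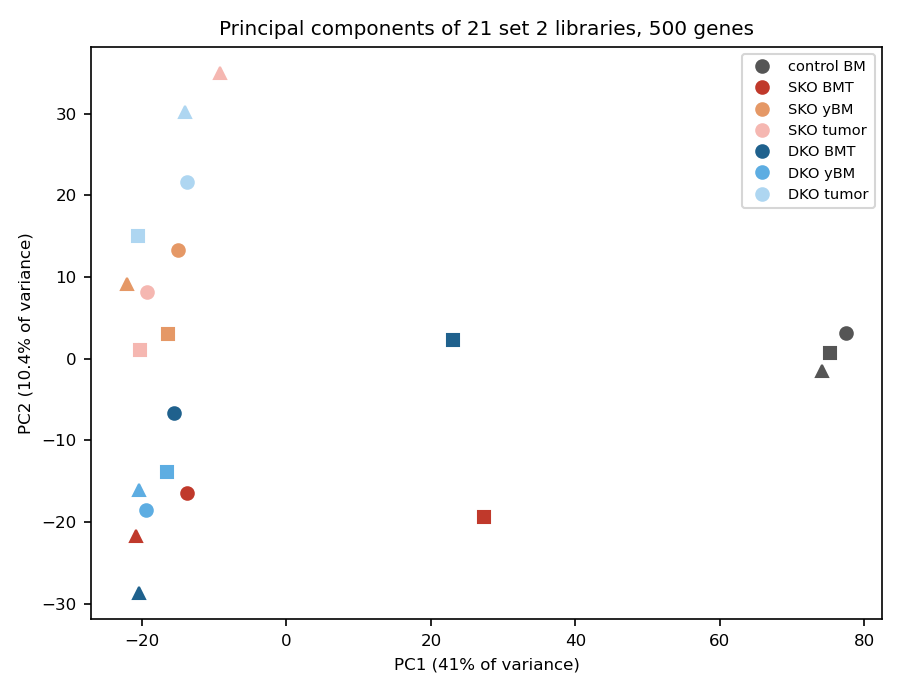
Scores of the 21 libraries on the first and second principal component (41% and 10.4% of the variance), from log2(TPM + 1) of the 500 most variable genes, coloured by group, with a circle, square and triangle for libraries 1, 2 and 3. The 3 control BM libraries lie at the far right, and SKO BMT 2 is the SKO BMT library nearest to them.

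The falls of largest size were genes of macrophages and other leukocytes. Lyz2, which encodes the lysozyme of myeloid cells, was at 17778, 14993 and 18933 TPM in control BM and at 1.29, 1981 and 0.224 TPM in SKO BMT. SKO BMT 2 alone kept a sizeable level of Lyz2, and no SKO BMT library reached the lowest control. Lyz2 fell by 9.92 (SE 2.20, adjusted p = 0.00543). Csf1r, the receptor that macrophages need to survive, was at 544, 582 and 599 TPM in control BM and at 0.39, 32.4 and 0.312 TPM in SKO BMT. Csf1r fell by 7.19 (SE 0.93, adjusted p = 2.3e-05). Marco, a scavenger receptor of macrophages, went from 133 to 371 TPM in control BM to 0, 0.118 and 0 TPM, and it fell by 7.92 (SE 0.41, adjusted p = 3.06e-10). Fcrls, an Fc receptor-like gene of macrophages and microglia, was at 237 to 293 TPM in control BM and at most 0.278 TPM in SKO BMT. Its adjusted p of 7.04e-15 was the smallest among the named genes. Fcrls was tested only because control BM, the group in which it is high, passed the filter, so its p-value is limited by that. C1qa, a chain of complement C1q, and Pf4, platelet factor 4, fell by 7.80 and 7.33. Apoe, Tyrobp, Laptm5, Clec4d, Clec4n and Wfdc17 completed the 12 largest called falls, between -8.42 and -7.18. Among these 12, Marco, C1qa, Pf4, Tyrobp, Laptm5 and Clec4n also would not have passed the filter without control BM. The adjusted p of Lyz2, Apoe, Tyrobp and Laptm5 rose to between 0.0552 and 0.0921 when the fit held only the 6 compared libraries.

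Of the 24 tested members of the macrophage and other leukocyte list, 23 fell, with a median of -6.51 against 0.07 over all genes. The exception was Fcer1g at -5.25 (adjusted p = 0.0543). Members such as Ptprc, Adgre1 and Pf4 would not have passed the filter without control BM, the group in which they are high. The summed level of the list was 24650 to 30340 TPM in control BM, and 113.7, 3467 and 9.109 TPM in SKO BMT 1 to 3. The defining members Ptprc and Adgre1 show the same order of libraries: Ptprc, the pan-leukocyte phosphatase CD45, was at 35.4 to 46.7 TPM in control BM and at 0, 3.83 and 0 TPM in SKO BMT, and Adgre1, the macrophage antigen F4/80, at 218 to 483 TPM and at 0, 34.8 and 0 TPM. In bulk RNA, fewer macrophages and less macrophage RNA per cell cannot be told apart. The level of leukocyte transcripts separates the same groups in every result against control BM below. Cell makeup and genotype cannot be told apart here, since all 3 control libraries hold these transcripts and 2 of the 3 SKO BMT libraries hold almost none. With SKO BMT 1 alone the count was again 23. Of the other blood cells, the T-cell gene Cd3e was at 0 TPM in all 6 libraries. The summed neutrophil list reached at most 15.49 TPM, the lymphocyte list 8.873 TPM and the erythroid list, none of whose members passed the filter, 15.89 TPM. Markers of skeletal and fat cells were present. The osteoclast list summed to 123.2 to 153.5 TPM in control BM and to 48.59, 760 and 5.749 TPM in SKO BMT 1 to 3. The protease Ctsk was at 652 TPM of this sum in SKO BMT 2. Ctsk was a smaller part in control BM 1 (64.6 of 136 TPM) and SKO BMT 3 (1.21 of 5.749 TPM). Acp5, another osteoclast marker, was at 31.2, 1.13 and 1.85 TPM in control BM and at 0.372, 67.9 and 0.277 TPM in SKO BMT. Of the 6 tested members of the osteoclast list, 2 were called lower, Atp6v0d2 and Tnfrsf11a. The adipocyte list summed to 251.4 to 604.6 TPM in control BM and to 297.5, 103.3 and 21.41 TPM in SKO BMT, with 2 of 8 called lower, Cd36, which macrophages also express, and Lipe. The chondrocyte list summed to 13.11, 136.3 and 138.4 TPM in control BM and to 45.03, 302.3 and 9.814 TPM in SKO BMT, with 1 of 6 called lower, Col10a1. The endothelial list reached at most 82.41 TPM. These marker genes were named after their values were seen. SKO BMT 2 stood highest of the 6 libraries in the osteoclast, chondrocyte and mesenchymal sums, and the part of these lists in the results below was not tested. The 13 mesenchymal genes were all at 1 TPM or more in all 6 libraries, and none was called. Their summed level was 4926 to 9106 TPM in control BM and 9782, 40380 and 4758 TPM in SKO BMT 1 to 3.

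**Figure D3:**
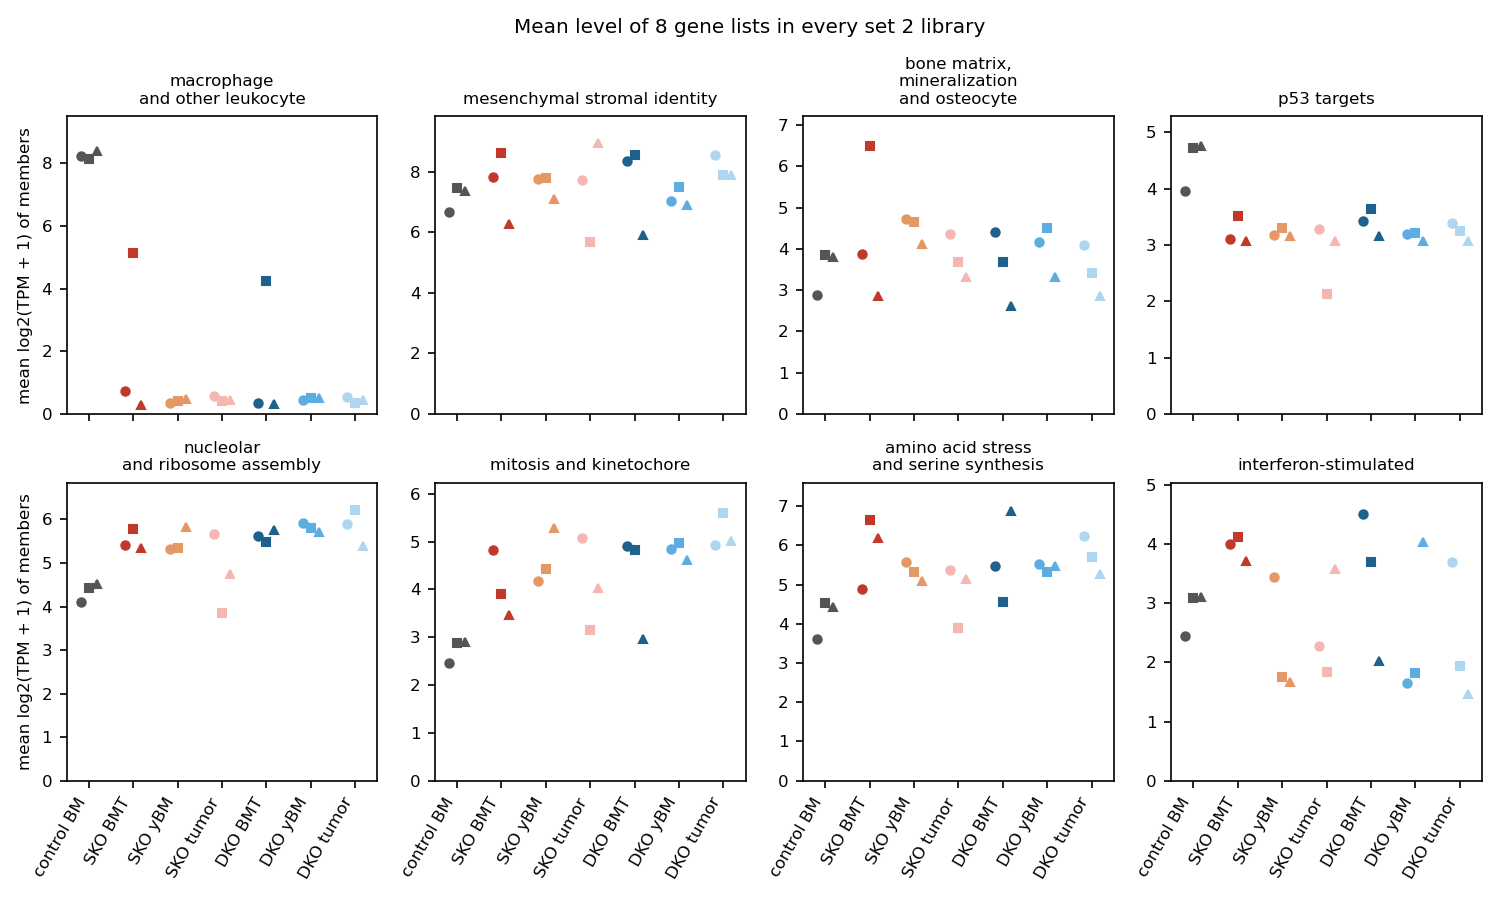
Mean log2(TPM + 1) over the members of 8 gene lists (vertical axes) in each of the 21 libraries, grouped by cell source (horizontal axis), with a circle, square and triangle for libraries 1, 2 and 3. The macrophage and other leukocyte list stands above 8 in the 3 control BM libraries and at 5.13 in SKO BMT 2, and the nucleolar and mitosis lists are lower in all 3 control BM libraries than in all 3 SKO BMT libraries.

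Many targets of p53 fell. Of 40 tested members, 17 were called lower (42.5%, against 8.36% of all genes) and none higher, with a median of -1.35. Cdkn1a, the p21 inhibitor of cyclin-dependent kinases, was at 284, 586 and 560 TPM in control BM and at 3.45, 119 and 10.6 TPM in SKO BMT. SKO BMT 2 held more Cdkn1a than the other SKO BMT libraries but less than any control. Cdkn1a fell by 4.63 (SE 1.00, adjusted p = 0.00426). Ccng1, cyclin G1, was at 173, 386 and 362 TPM in control BM and at 21.4, 22.3 and 31.3 TPM in SKO BMT, a tight group, and fell by 3.50 (SE 0.45, adjusted p = 2.07e-05). Trp53inp1, a nuclear cofactor of p53, fell from 18.3 to 32.9 TPM to 1.4 to 3.6 TPM, by 3.17 (adjusted p = 6.25e-05). Mdm2, the ubiquitin ligase that degrades p53, was at 68, 99.5 and 86.6 TPM in control BM and at 10.3, 18 and 20.1 TPM in SKO BMT. Mdm2 fell by 2.36 (SE 0.33, adjusted p = 6.47e-05). The death receptors Eda2r and Fas fell by 3.12 and 2.59, and the apoptosis genes Bax and Bbc3 by 1.35 and 1.23. Btg2, an anti-proliferative gene, fell by 2.44, and Sesn1, a stress-induced sestrin, by 1.84. Bax was not called without SKO BMT 3 or control BM 2, Sesn1 without SKO BMT 3 or control BM 3, and Bbc3 without any 1 library other than SKO BMT 2 (adjusted p up to 0.0686, 0.0941 and 0.146). Leaving out 1 library at a time gave 10 to 17 members lower, and SKO BMT 1 alone gave 8. Some p53 targets are also expressed by macrophages, and the leukocyte list stood highest in SKO BMT 2 among the SKO BMT libraries, as Cdkn1a did. Its part in these falls was not tested.

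**Figure D4:**
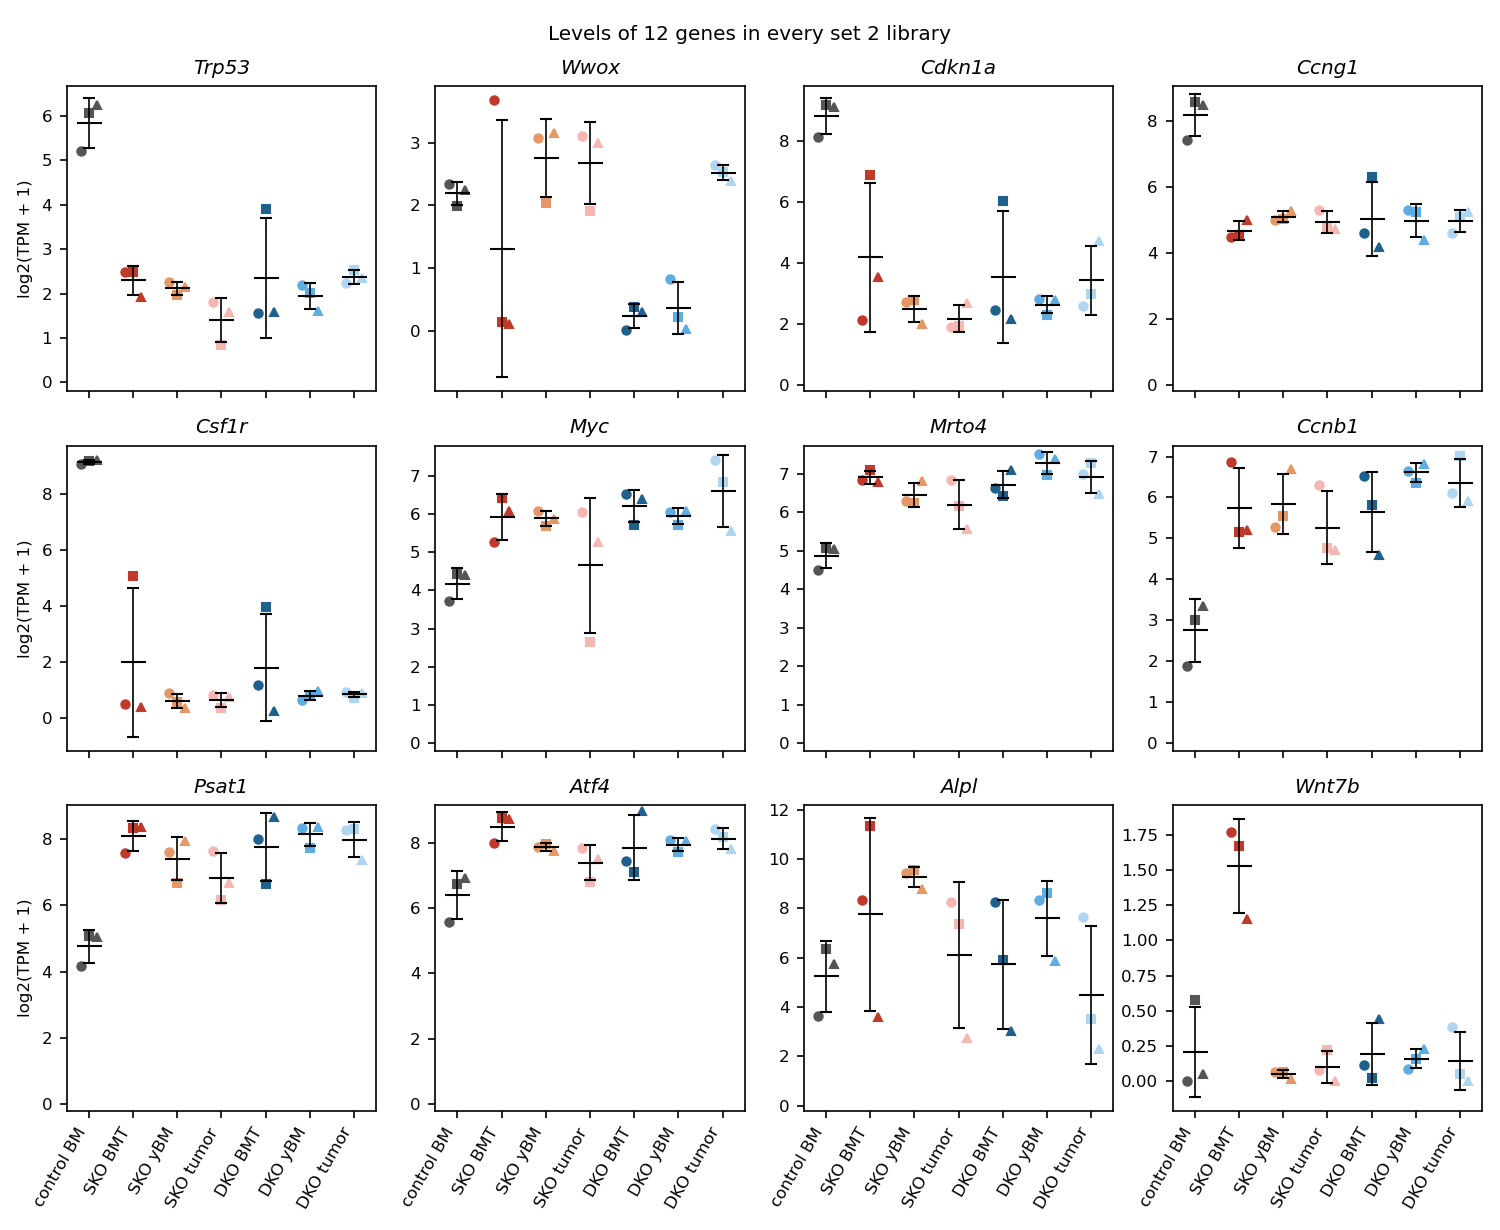
Log2(TPM + 1) of 12 genes (vertical axes, each with its own range) in the 7 groups of the set (horizontal axis), with a circle, square and triangle for libraries 1, 2 and 3 and with the mean and SD of each group in black. Trp53, Cdkn1a and Ccng1 are lower and Mrto4, Ccnb1 and Psat1 higher in all 3 SKO BMT libraries than in all 3 control BM libraries, Wwox is near 0 in SKO BMT 2 and SKO BMT 3, and Wnt7b is above 1 on this scale in the SKO BMT libraries alone.

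Genes that build ribosomes were higher in SKO BMT. In the nucleolar and ribosome assembly list 21 of 56 tested members rose (37.5%, against 5% of all genes) and none fell, with a median of 1.21. Mrto4, which assembles the stalk of the large subunit, was at 21.7, 32.5 and 32.2 TPM in control BM and at 113, 137 and 110 TPM in SKO BMT. The groups were far apart, and Mrto4 rose by 2.04 (SE 0.33, adjusted p = 0.000242). Nop56, a core protein of the box C/D snoRNPs that direct RNA methylation, rose from 35.1 to 38.5 TPM to 120 to 188 TPM, by 1.94 (SE 0.37, adjusted p = 0.00157). Ppan, a large-subunit assembly factor, rose by 2.15 (adjusted p = 0.0017). Rrp9 binds the U3 snoRNA, and the study reported it as higher than control in BMT and tumor cells of DKO mice, from other libraries. Here Rrp9 was at 23.5, 20.6 and 19.6 TPM in control BM and at 69.7, 66.3 and 54.3 TPM in SKO BMT. Its groups did not overlap and it rose by 1.53 (SE 0.44, adjusted p = 0.0287), but the call was lost without any 1 library other than SKO BMT 3, with adjusted p up to 0.0837. Polr1a, Polr1b and Polr1c, subunits of RNA polymerase I, rose by 1.97, 1.91 and 1.91. Without 1 library, Polr1a stayed called only where SKO BMT 3 was the one left out, and Polr1b where it was SKO BMT 3 or control BM 3 (adjusted p up to 0.167 and 0.111). Leaving out 1 library at a time gave 10 to 18 members higher and SKO BMT 1 alone gave 5, with Nop56 at an adjusted p of 0.077 there.

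Ribosomal proteins themselves moved in the same direction by smaller amounts. Of 80 cytosolic ribosomal proteins tested, 22 rose (27.5%, against 5% of all genes) and none fell, with a median of 0.95. Rpsa, of the small subunit, was at 540, 1011 and 900 TPM in control BM and at 2668, 2090 and 3154 TPM in SKO BMT, and rose by 1.72 (SE 0.31, adjusted p = 0.000899). Rpl8 and Rpl3, of the large subunit, rose by 1.86 and 1.89. Rpl39l, a paralog of Rpl39, had the largest rise, 3.75 (SE 0.99, adjusted p = 0.0175), from 8.3, 62.1 and 18.5 TPM to 322, 260 and 330 TPM. Its call was lost without SKO BMT 1 (adjusted p = 0.0509) and without control BM 1 (adjusted p = 0.0932), and reads of such paralogs and of ribosomal pseudogenes may be divided between near-identical copies. The count of ribosomal proteins depended on the fit: 7 rose after median-ratio scaling, 23 after quantile normalization, 7 to 32 with 1 library left out, 1 when only the 6 compared libraries were fitted and 2 with SKO BMT 1 alone. Control BM 1, where the mitochondrial genome took 32.5% of all TPM, was the lowest control library for Rpsa, Rpl8 and Rpl3, and 20 ribosomal proteins rose when the mitochondrial genes were removed and the rest rescaled. Mrps30, a mitochondrial ribosomal protein, went from 6.12 to 11.3 TPM in control BM to 26.4 to 31.9 TPM in SKO BMT. Of 78 mitochondrial ribosomal proteins, 18 rose (23.1%) and none fell (median 0.72). That count was 4 to 22 with 1 library left out and 1 with SKO BMT 1 alone. In the nuclear oxidative phosphorylation list, 8 of 76 rose (10.5%), a count that ran from 0 to 16 with 1 library left out. Cox6b1 alone fell, a call lost without SKO BMT 3 or control BM 1 (adjusted p up to 0.0715).

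Few transcripts of the mitochondrial genome were called. mt-Atp6, a subunit of the ATP synthase, was at 11614, 5376 and 2445 TPM in control BM and at 1061, 941 and 2718 TPM in SKO BMT. Its groups overlap, because SKO BMT 3 stands above control BM 3. The 21 tested mitochondrial genes had a median of -0.65, which ran from -1.05 to -0.147 with 1 library left out. Among them 2 were called lower, mt-Atp6 and mt-Nd6, a share of 9.52% near the 8.36% of all genes. Each call held in 2 of the 6 fits that left out 1 library, and both calls were lost without control BM 1 (adjusted p = 0.113 and 0.181), the library with the highest mitochondrial share.

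Myc, the transcription factor on which the study focused, was at 12.2, 20.4 and 20.1 TPM in control BM and at 37.5, 85 and 67.1 TPM in SKO BMT. Every SKO BMT library was above every control, as in 17.8% of all genes. The difference of 1.75 (SE 0.62) did not pass the threshold (adjusted p = 0.0711). It did pass after median-ratio scaling (1.58, adjusted p = 0.029) and quantile normalization (1.70, adjusted p = 0.017). No member of the 11 tested genes of the Myc, Max and Mxd network was called, and their median was 0.005. Mxd3, a Max partner induced in cycling cells, was at 0.883 to 1.89 TPM in control BM and at 24.7, 8.17 and 2.51 TPM in SKO BMT (1.98, adjusted p = 0.0783). Max, the common partner, had overlapping groups (-0.59, adjusted p = 0.202). The study also named Ran and Rcc1, as higher than control in BMT and tumor cells of DKO mice, from other libraries. Ran is a small GTPase that drives nuclear import and export. Here Ran was at 68.4, 122 and 165 TPM in control BM and at 443, 297 and 259 TPM in SKO BMT. It rose by 1.53 (SE 0.34, adjusted p = 0.00518). Rcc1, the exchange factor of Ran, had a difference of 1.85 (SE 0.60) at an adjusted p of 0.0499 and was not called in any of the 6 fits that left out 1 library (adjusted p up to 0.151). The nuclear transport list had 7 of 39 members higher (17.9%, against 5% of all genes) and none lower. The rises were 2 to 5 with 1 library left out. Nup43, a nucleoporin, rose by 1.64 (adjusted p = 0.00295).

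Genes of DNA replication rose in part. The replication licensing and fork list had 10 of 49 members higher (20.4%, against 5% of all genes) and 1 lower, with a median of 1.12. Mcm7, a subunit of the MCM helicase that the study followed up, was at 15.6, 28.2 and 25.6 TPM in control BM and at 122, 51.5 and 78 TPM in SKO BMT. No values overlapped, and Mcm7 rose by 1.77 (SE 0.48, adjusted p = 0.0212), but the call was lost without SKO BMT 1, SKO BMT 3 or control BM 1 (adjusted p up to 0.0984). Its partner Mcm5 was at 7.63, 16.3 and 18.7 TPM in control BM and at 104, 27.1 and 21.8 TPM in SKO BMT, high mainly in SKO BMT 1, and was not called (1.50, SE 0.70, adjusted p = 0.163). Recql4, a helicase of replication initiation, went from at most 0.429 TPM in control BM to 4.72, 7.9 and 4.55 TPM and rose by 2.26 (SE 0.48, adjusted p = 0.00356). Rfc3, a clamp loader subunit, and Pold2, a subunit of DNA polymerase delta, rose by 1.62 and 2.26. Pold3, another subunit of that polymerase, fell by 1.24 (adjusted p = 0.0305), a call kept only where control BM 2 was left out (adjusted p up to 0.117). Leaving out 1 library at a time gave 3 to 8 members higher, and SKO BMT 1 alone gave 6.

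Mitotic genes rose in part, and the mean level of the list was highest in SKO BMT 1. In the mitosis and kinetochore list 15 of 57 members rose (26.3%, against 5% of all genes) and none fell, with a median of 1.33. Ccnb1, the cyclin that drives entry into mitosis, was at 2.68, 7.03 and 9.25 TPM in control BM and at 116, 34.9 and 35.8 TPM in SKO BMT. It rose by 3.00 (SE 0.59, adjusted p = 0.00198). Cenpa, the histone H3 variant of centromeres, was at 5.17, 9.36 and 15.7 TPM in control BM and at 120, 51.6 and 43.4 TPM in SKO BMT, a rise of 2.68 (SE 0.50, adjusted p = 0.00107). Cdc25c, the phosphatase that activates Cdk1, rose by 2.40 (adjusted p = 0.0019). Cdc20, an activator of the anaphase-promoting complex, rose by 2.93, Ube2c, its ubiquitin-conjugating enzyme, by 2.16, and the kinase Cdk1 by 1.62. Ube2c was not called without SKO BMT 1 or control BM 1, nor Cdk1 without SKO BMT 1, control BM 1 or control BM 2 (adjusted p up to 0.079 and 0.158). Leaving out 1 library at a time gave 5 to 16 members higher, and SKO BMT 1 alone gave 12. Among cyclins, Cdks and inhibitors, Cdk4, the kinase that phosphorylates Rb, was at 96.4, 247 and 263 TPM in control BM and at 858, 524 and 723 TPM in SKO BMT, and rose by 1.89 (SE 0.44, adjusted p = 0.00738). Cdkn2a, which encodes p16 and p19ARF, rose by 1.51 (adjusted p = 0.0421). Rb1, the retinoblastoma protein, fell from 11.2, 14.9 and 18 TPM to 2.5, 5.31 and 3.79 TPM, by 1.71 (SE 0.41, adjusted p = 0.00973), and was just over the threshold without SKO BMT 1 (adjusted p = 0.0508). Its relative Rbl2 fell by 1.14. Among the 6 fits without 1 library, Cdkn2a was called only without control BM 3 and Rbl2 only without SKO BMT 2 (adjusted p up to 0.206 and 0.161).

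Promoters of mitotic genes are known for CCAAT boxes, bound by NF-Y, and for the cell cycle homology region with the core TTTGAA. The RefSeq promoter table (build GRCm38.p6, not the build of the expression files) held 46 of the 57 list members by symbol. In the 250 bases before the start, CCAAT was present on either strand in 69.6% of these members and TTTGAA in 34.8%, against 37.5% and 18.3% of all 27025 genes in the table. Among the 10 members that rose and are in the table, the shares were 80% and 60%. The windows of 3 members that rose and hold both motifs are shown 5′ to 3′ on the strand of the gene because they let the elements be seen side by side, with each match in either direction in capitals. Cenpn and Ncapd2 are among the other members that rose and hold both motifs, and their windows are not shown. In Ube2c a pair of CCAAT matches in opposite directions overlap.
Cdc20, chr4:118437344-118437593, minus strand: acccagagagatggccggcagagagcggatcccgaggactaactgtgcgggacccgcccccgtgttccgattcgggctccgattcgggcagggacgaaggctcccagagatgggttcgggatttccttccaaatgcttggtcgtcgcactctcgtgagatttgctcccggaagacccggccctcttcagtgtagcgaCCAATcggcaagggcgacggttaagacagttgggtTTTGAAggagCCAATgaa
Cdk1, chr10:69352913-69353162, minus strand: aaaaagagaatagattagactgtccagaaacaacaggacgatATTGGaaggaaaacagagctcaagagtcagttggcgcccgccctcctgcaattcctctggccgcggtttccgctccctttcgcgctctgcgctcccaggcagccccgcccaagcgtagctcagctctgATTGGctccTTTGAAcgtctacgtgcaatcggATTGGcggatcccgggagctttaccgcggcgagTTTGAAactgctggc
Ube2c, chr2:164769679-164769928, plus strand: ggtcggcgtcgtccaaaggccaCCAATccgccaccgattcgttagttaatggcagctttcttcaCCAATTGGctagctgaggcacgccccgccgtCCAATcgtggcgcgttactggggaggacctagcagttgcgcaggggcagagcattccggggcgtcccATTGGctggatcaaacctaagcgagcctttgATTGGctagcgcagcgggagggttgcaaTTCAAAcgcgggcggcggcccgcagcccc
A match is a description of these letters. For the nucleolar list, the E-box CACGTG, a sequence that Myc and Max bind, was in 4.17% of 48 matched members, in 5% of the 20 matched members that rose and in 6.86% of all genes in the table.

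Genes of serine synthesis and the amino acid response had the highest share of rises among the lists described here, 16 of 31 tested (51.6%, against 5% of all genes), with no falls and a median of 1.86. Atf4, the transcription factor of this response, was at 46.5, 105 and 119 TPM in control BM and at 253, 432 and 422 TPM in SKO BMT. It rose by 2.09 (SE 0.43, adjusted p = 0.00317). Psat1 and Phgdh, which make serine from a glycolytic intermediate, were at 17 to 32.3 and 35.7 to 98.1 TPM in control BM. In SKO BMT, Psat1 was at 189, 320 and 326 TPM and Phgdh at 373, 467 and 501 TPM. Psat1 rose by 3.33 (SE 0.49, adjusted p = 0.00011) and Phgdh by 2.85 (SE 0.56, adjusted p = 0.00181). Asns, asparagine synthetase, was at 22.2, 55 and 54.5 TPM in control BM and at 115, 389 and 306 TPM in SKO BMT, a rise of 2.53 (SE 0.57, adjusted p = 0.00576). Aldh1l2, a mitochondrial folate enzyme, was at 1.61 to 3.32 TPM in control BM and at 8.39, 135 and 90.6 TPM in SKO BMT (3.74, adjusted p = 0.00472). In Atf4, Psat1, Phgdh, Asns and Aldh1l2 alike, SKO BMT 1 was the lowest SKO BMT library and still above every control. SKO BMT 2 and SKO BMT 3 are the libraries low in Wwox, and with SKO BMT 1 alone 1 of the 31 members was called higher and the median was 0.60. In that fit the called member was Psat1, while Phgdh had an adjusted p of 0.0743, Atf4 of 0.15 and Aldh1l2 of 0.388. Leaving out 1 library at a time gave 8 to 21 members higher.

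Atf4 and its partners bind an amino acid response element with the core TGATGNAA. Of the 25 members in the promoter table, 36% held this core in the 250 bases before the start, on either strand, against 3.91% of all genes in the table. Among the 14 members that rose and are in the table the share was 28.6%, below that of the whole list. The 4 members that rose and hold it are shown 5′ to 3′ on the strand of the gene, with the core in capitals, for build GRCm38.p6.
Asns, chr6:7693210-7693459, minus strand: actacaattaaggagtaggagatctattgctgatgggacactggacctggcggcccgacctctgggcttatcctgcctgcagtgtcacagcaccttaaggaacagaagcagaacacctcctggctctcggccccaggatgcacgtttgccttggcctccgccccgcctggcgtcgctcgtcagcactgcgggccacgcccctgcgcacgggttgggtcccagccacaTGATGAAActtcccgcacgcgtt
Gars, chr6:55037751-55038000, plus strand: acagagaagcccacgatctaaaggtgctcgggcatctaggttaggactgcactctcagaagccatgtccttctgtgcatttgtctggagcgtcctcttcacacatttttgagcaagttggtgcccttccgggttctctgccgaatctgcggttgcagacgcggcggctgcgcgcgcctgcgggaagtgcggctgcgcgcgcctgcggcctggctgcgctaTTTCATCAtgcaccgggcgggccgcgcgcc
Pycr1, chr11:120643749-120643998, minus strand: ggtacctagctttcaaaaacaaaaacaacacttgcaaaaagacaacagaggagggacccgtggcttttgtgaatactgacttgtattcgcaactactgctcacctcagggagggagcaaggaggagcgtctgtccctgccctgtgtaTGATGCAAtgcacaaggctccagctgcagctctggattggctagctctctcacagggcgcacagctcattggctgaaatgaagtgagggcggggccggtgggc
Aars, chr8:111033592-111033841, plus strand: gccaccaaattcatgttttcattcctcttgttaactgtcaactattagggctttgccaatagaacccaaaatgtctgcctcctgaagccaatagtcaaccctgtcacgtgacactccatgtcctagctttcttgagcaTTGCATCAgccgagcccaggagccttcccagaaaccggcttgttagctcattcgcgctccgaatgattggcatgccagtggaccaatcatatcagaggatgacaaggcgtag
Gars and Aars, the tRNA synthetases for glycine and alanine, rose by 2.00 and 1.86, and Pycr1, which completes proline synthesis, by 2.62. Each of the 4 was lowest in SKO BMT 1 among the SKO BMT libraries: Gars at 198, 586 and 363 TPM, Pycr1 at 22.4, 126 and 76.8 TPM and Aars at 108, 190 and 139 TPM. Aars was not called without SKO BMT 2 or control BM 1 (adjusted p up to 0.0735), and with SKO BMT 1 alone none of the 4 was called (adjusted p from 0.251 to 0.368).

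Folate and nucleotide enzymes rose beside these genes. Of 34 nucleotide synthesis members, 13 were higher (38.2%, against 5% of all genes) and 2 lower (5.88%, against 8.36%), with a median of 1.32. Mthfd2, a mitochondrial folate enzyme, was at 11, 29 and 24.6 TPM in control BM and at 54.7, 193 and 124 TPM in SKO BMT, a rise of 2.40 (SE 0.48, adjusted p = 0.00236). Tyms, thymidylate synthase, was at 4.78, 15.5 and 19.6 TPM in control BM and at 115, 51.2 and 41.7 TPM in SKO BMT, a rise of 2.35 (SE 0.48, adjusted p = 0.0026). SKO BMT 1 was thus the lowest SKO BMT library for Mthfd2 and the highest for Tyms. Shmt1, the cytosolic serine hydroxymethyltransferase, rose by 2.77 (adjusted p = 0.00379). Cmpk1, a pyrimidine nucleotide kinase, and Hprt, of purine salvage, fell by 1.52 and 1.03. The Cmpk1 call held only without SKO BMT 2 or control BM 3 and the Hprt call only without SKO BMT 2 or control BM 1, among the fits that left out 1 library (adjusted p up to 0.123 and 0.11). With 1 library left out, 5 to 14 members rose, and with SKO BMT 1 alone 6 did. In polyamine metabolism, 4 of 14 members rose (28.6%, against 5% of all genes). The rises were led by Srm, spermidine synthase, at 2.43 (SE 0.56, adjusted p = 0.00696). Sat1, which acetylates polyamines for export, fell by 1.51. The Sat1 call was lost without any 1 library other than SKO BMT 2 (adjusted p up to 0.174) and after median-ratio scaling (adjusted p = 0.0925). That count of rises was 1 to 4 with 1 library left out and 0 with SKO BMT 1 alone.

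Of 75 DNA repair genes tested, 7 rose (9.33%, against 5% of all genes) and 3 fell (4%, against 8.36%), with a median of 0.54. With 1 library left out, 3 to 7 rose and 1 to 3 fell. Xrcc6, the Ku70 subunit of end joining, was at 16.5, 13.6 and 16.7 TPM in control BM and at 41, 45.8 and 52.7 TPM in SKO BMT. It rose by 1.51 (SE 0.30, adjusted p = 0.0018). Apex1, the abasic site endonuclease, rose from 33.1 to 57.7 TPM to 154 to 175 TPM, by 1.76 (adjusted p = 0.00186). Mgmt, which removes methyl groups from guanine, fell from 6.54, 21.7 and 24.5 TPM to 4.74, 2.31 and 3.04 TPM, by 1.94 (adjusted p = 0.00434). Among telomere genes, 3 of 18 rose (16.7%, against 5% of all genes). Acd and Tinf2, of the shelterin complex, rose by 1.17 and 1.32, and Stn1, of the CST complex, by 1.37. The telomere count was 0 to 2 with 1 library left out. Acd and Tinf2 stayed called only without SKO BMT 3 and Stn1 only without SKO BMT 2 (adjusted p up to 0.139, 0.144 and 0.217).

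The 3 SKO BMT libraries differed strongly among themselves in bone genes. Alpl, the alkaline phosphatase of mineralizing cells, was at 11.4, 82 and 53.1 TPM in control BM and at 324, 2628 and 11 TPM in SKO BMT. SKO BMT 2 was far above every control, and SKO BMT 3 below the lowest. The difference of 2.51 (SE 1.80) was not called (adjusted p = 0.376). Sp7, which encodes Osterix, was at 0.882, 10.3 and 10.4 TPM in control BM and at 23, 224 and 0.562 TPM in SKO BMT. Col1a1, the main bone collagen, was at 493 to 775 TPM in control BM and at 565, 14533 and 342 TPM in SKO BMT, and Bglap, osteocalcin, at 0, 5.69 and 7.61 TPM and at 0.576, 1637 and 0.615 TPM. Runx2, the master factor of osteoblasts, was at 6.32, 10.3 and 11.5 TPM in control BM and at 30.2, 77 and 17.9 TPM in SKO BMT. No Runx2 values overlapped, and it rose by 1.83 (SE 0.57, adjusted p = 0.04), a call lost without any 1 library other than SKO BMT 3 (adjusted p up to 0.176). Runx2 and Atf4 were the members called among 21 osteoblast transcription factors (9.52% higher, against 5% of all genes). In the bone matrix, mineralization and osteocyte list, 1 of 25 members rose (4%, against 5% of all genes) and 1 fell (4%, against 8.36%). Tnn, tenascin N of the bone surface, was at 0.583, 1.09 and 0.687 TPM in control BM and at 330, 511 and 8.9 TPM in SKO BMT, the largest called rise of a named gene at 6.07 (SE 1.74, adjusted p = 0.0275). The Tnn call was lost without any 1 library other than SKO BMT 3 (adjusted p up to 0.105). Mgp, an inhibitor of mineralization, was at 564, 592 and 537 TPM in control BM and at 18.3, 89.5 and 5.73 TPM in SKO BMT, and fell by 4.63 (adjusted p = 0.00914, and 0.0519 without SKO BMT 3).

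Growth factor genes of the stroma were called at shares near those of all genes. In the insulin-like growth factor list 2 of 19 fell (10.5%, against 8.36% of all genes), in the BMP, activin and TGF-beta list 3 of 37 fell (8.11%), and in the Wnt list 3 of 39 rose (7.69%, against 5%) and 2 fell (5.13%). With 1 library left out, the falls were 1 to 3, 3 to 5 and 0 to 2, and the Wnt rises 1 to 3. Igf1, insulin-like growth factor 1, was at 380, 286 and 276 TPM in control BM and at 21, 23.7 and 6.08 TPM in SKO BMT. It fell by 4.31 (adjusted p = 0.0065), and macrophages as well as stromal cells are known to make it. Igfbp5, an IGF-binding protein of bone, fell by 3.65 (adjusted p = 0.0417), a call lost without any 1 library other than SKO BMT 2 (adjusted p up to 0.145). The falls of the BMP, activin and TGF-beta list were Tgfbr1, the type I TGF-beta receptor, from 28.8, 19.5 and 23.1 TPM to 5.39, 5.02 and 5.31 TPM, by 1.97 (adjusted p = 0.0059), while Inhbb, an activin subunit, fell by 2.74 and Gdf6, a BMP ligand, fell by 1.58. Wnt7b, an osteogenic ligand, was at 0, 0.49 and 0.0373 TPM in control BM and at 2.40, 2.18 and 1.22 TPM in SKO BMT (1.32, SE 0.23, adjusted p = 0.00048), and it entered the test through the SKO BMT libraries alone. Wnt10b, another ligand that favors bone formation, rose by 2.67 (adjusted p = 0.0133, and up to 0.0564 without SKO BMT 2 or control BM 1). The Wnt antagonist Sfrp2 rose by 3.75 and its relative Sfrp4 fell by 2.93, and both calls were lost without control BM 1 (adjusted p = 0.207 and 0.0661) and without 2 or more other libraries in turn. Rspo3, which amplifies Wnt signals, fell by 3.12 (adjusted p = 0.0264, and up to 0.114 without any 1 library other than control BM 1, where alone it stayed called). Among smooth muscle and contractile genes, Lmod1 and Itga8 fell by 3.64 and 2.82, out of 23 tested (8.7%), and Lmod1 was not called without SKO BMT 3 or control BM 2 (adjusted p up to 0.06). The study reported Mylk and Nid2 as lower than control in BMT and tumor cells of DKO mice, from other libraries. In SKO BMT they were not called (-1.04, adjusted p = 0.662, and -1.14, adjusted p = 0.533), and their groups overlap. Mylk was at 21, 50.9 and 77.8 TPM in control BM and at 73.7, 46.1 and 1.95 TPM in SKO BMT.

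Chemokines moved in both directions. Of 26 stromal chemokines and cytokines, 3 were higher (11.5%, against 5% of all genes) and 5 lower (19.2%, against 8.36%). With 1 library left out, 0 to 2 were higher and 3 to 8 lower. Ccl5, which attracts T cells and monocytes, was at 0, 2.50 and 2.25 TPM in control BM and at 583, 8.45 and 563 TPM in SKO BMT. It rose by 6.02 (SE 1.64, adjusted p = 0.0207), with SKO BMT 2 well below the others, and was not called without SKO BMT 1, SKO BMT 3 or control BM 1 (adjusted p up to 0.0953). Cxcl10, a chemokine induced by interferon, was at 0.183 to 1.52 TPM in control BM and at 79.9, 3.18 and 36.4 TPM in SKO BMT (3.82, adjusted p = 0.0214). The Cxcl10 call held in 2 of the 6 fits that left out 1 library (adjusted p up to 0.111). Saa3, an acute-phase protein, Tnf, the inflammatory cytokine, and Cxcl2, a neutrophil attractant, fell by 4.09, 3.25 and 2.47. Saa3, Tnf and Cxcl2 would not have passed the filter without control BM, the group in which they are high. Tnf was at 3.29, 15 and 18.8 TPM in control BM and at 0, 0.557 and 0 TPM in SKO BMT, and it is known as a macrophage product. In the interferon-stimulated list 2 of 45 rose (4.44%, against 5% of all genes), with a median of 1.03. Oasl1 went from at most 0.156 TPM in control BM to 6.93, 5.58 and 8.70 TPM (2.89, adjusted p = 0.00603), and Xaf1 rose by 2.77 (adjusted p = 0.0384), a call that no fit without 1 library kept. Usp18, which dampens interferon signaling, had no overlap, at 0.53, 1.52 and 1.72 TPM against 27, 27.5 and 24.2 TPM, but was not called in the fit to all 7 groups (adjusted p = 0.0602). With the 6 compared libraries alone, Usp18 was called (3.63, adjusted p = 0.0081) and the count of interferon-stimulated genes was 15. The interferon-stimulated list also varied within other groups of the set, as its plot by library shows. In the MHC class I list 2 of 20 rose (10%, against 5% of all genes), and 0 to 4 with 1 library left out. H2-Q6 rose by 3.03 and H2-T22 by 1.64. Both are members of a family of similar genes among which reads may be divided. Both calls held only where SKO BMT 3 or control BM 3 was the library left out (adjusted p up to 0.146 for H2-Q6 and 0.204 for H2-T22). Of 28 early response genes 3 fell, a share of 10.7% near the 8.36% of all genes: Fos, part of the AP-1 factor, from 21.5, 37.3 and 54.4 TPM to 1.23, 2.97 and 1.50 TPM (-3.69, adjusted p = 0.013), Dusp6, an ERK phosphatase, by 2.49 and Zfp36, which destabilizes inflammatory mRNAs, by 2.20. Zfp36 was not called without SKO BMT 3, control BM 2 or control BM 3 (adjusted p up to 0.0835).

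**Figure D5:**
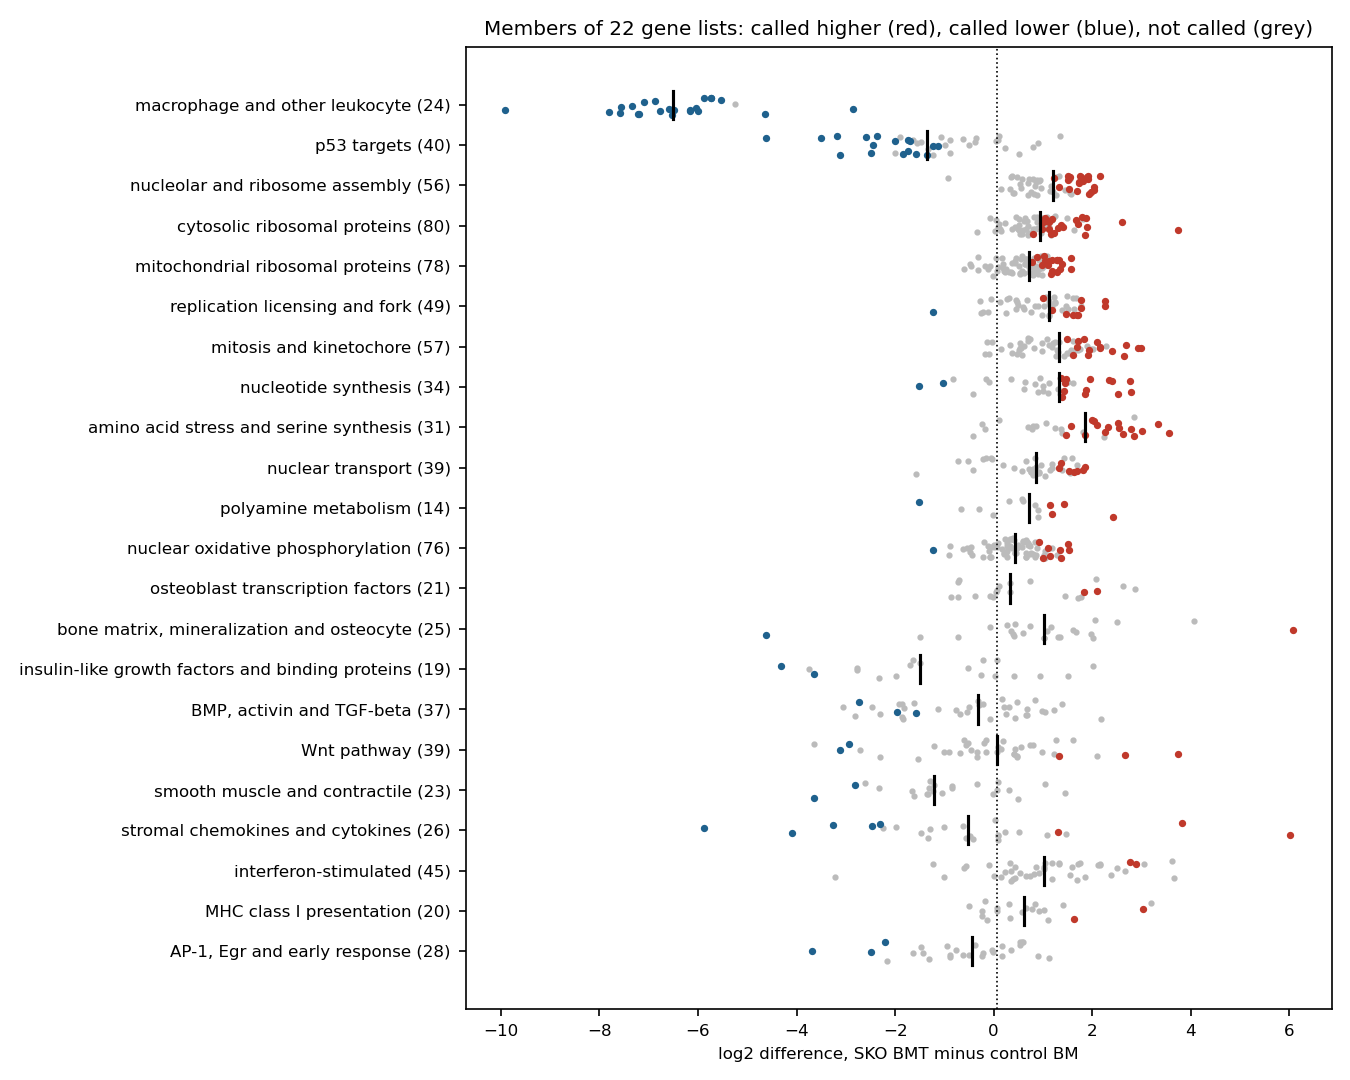
Log2 difference between SKO BMT and control BM (horizontal axis) of each tested member of 22 gene lists (vertical axis, number of members in parentheses), red where called higher, blue where called lower and grey where not called, with a black bar at each list's median and a dotted line at 0.07, the median over all genes tested. The macrophage and other leukocyte list lies almost wholly below -4, most p53 targets to the left of the dotted line, and most members of the ribosome, replication, mitosis and serine lists to its right.

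Other large rises by the naming rule came from genes of various roles. Gfra2, a co-receptor of the GDNF family, was at 0.121 to 0.494 TPM in control BM and at 43.9, 7.35 and 37.7 TPM in SKO BMT (4.28, SE 0.65, adjusted p = 0.000138). Pgm5, a phosphoglucomutase relative at adhesion sites, was at 0, 0.261 and 0.611 TPM in control BM and at 13.7, 85.8 and 24.7 TPM in SKO BMT (4.66, SE 0.97, adjusted p = 0.00315). Capn6, a calpain that lacks protease activity, and Smpdl3b, a sphingomyelinase-like enzyme, rose by 3.72 and 3.70. The snoRNAs Snora17 and Snora2b were listed at 0 in all control BM libraries and at 25.3 to 189 and 12.6 to 29.1 TPM in SKO BMT, so no fold is given. Snora2b was not called in any of the 6 fits that left out 1 library (adjusted p up to 0.114). The remaining lists had few calls, where 5% of all genes were called higher and 8.36% lower. Of 24 glycolysis genes 1 rose and 1 fell (4.17% each). The rise was the lactate transporter Slc16a1 (2.19, with an adjusted p of 0.0506 without SKO BMT 2), and the fall was Aldoc (-2.67). Cholesterol synthesis had 2 of 25 higher (8%), with Fdft1, squalene synthase, at 1.43 (adjusted p = 0.00187). Endoplasmic reticulum chaperones had 2 of 28 higher (7.14%), P4hb and Pdia6. Without 1 library, P4hb stayed called only where SKO BMT 3 was left out and Pdia6 only where SKO BMT 2 or control BM 3 was (adjusted p up to 0.156 and 0.203). Of 33 matrix proteases and inhibitors 3 fell, Mmp12, Serpine2 and Mmp8, a share of 9.09% near the 8.36% of all genes. Mmp12 is known as the macrophage elastase. Mmp12 and Mmp8 would not have passed the filter without control BM, the group in which they are high. Serpine2 was not called without SKO BMT 3, control BM 2 or control BM 3 (adjusted p up to 0.147). Collagens, basement membrane genes, proteoglycans and marrow niche genes had 1 fall each, Yap and Tead targets 1 rise, and no gene was called among 29 Hox genes and 34 other limb and axial factors.

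Few genes were called between SKO BMT and SKO yBM, SKO tumor or DKO BMT, the knockout cultures it was compared with. Against SKO yBM, 3 genes were called (0.0207% of the genes tested), 2 higher in SKO BMT (0.0138%) and 1 lower (0.00692%), with 1098 at an unadjusted p under 0.05 (7.59%). Against SKO tumor 12 were called (0.083%), 3 higher (0.0207%) and 9 lower (0.0622%), with 1649 at an unadjusted p under 0.05 (11.4%). The contrast with DKO BMT is not a clean contrast of genotypes. In SKO BMT 2 and SKO BMT 3, Wwox was at 0.102 and 0.0857 TPM, the level of DKO BMT. Against DKO BMT the limma fit called 0 genes (0%), with 378 at an unadjusted p under 0.05 (2.61% of the genes tested). There 1 gene was called after median-ratio scaling, after quantile normalization, with no filter or with the compared groups alone. The gene called was Trf, transferrin, under both scalings (higher in SKO BMT by 2.93 and 3.00, adjusted p = 0.043 and 0.0102), Wnt7b with no filter (adjusted p = 0.0219) and the unnamed gene model ENSMUSG00002076480 with the compared groups alone (adjusted p = 0.0363), of which Trf and the gene model were chosen for mention after their values were seen. These comparisons share the SKO BMT libraries, and the groups were also split by other means: a second gene model with the symbol Myl12b (ENSMUSG00000117098) was at most 1.38 TPM in control BM and SKO BMT and 4.07 TPM in DKO BMT, but at 784, 3.09 and 933 TPM in SKO yBM and at 1518, 720 and 563 TPM in SKO tumor. The pseudogene Rpl34-ps1 was at 0 TPM in all control BM, SKO BMT and DKO BMT libraries and at 866 to 2388 TPM in all SKO yBM and SKO tumor libraries. Differences from SKO yBM and SKO tumor cannot be told apart from whatever separates these libraries. For the second Myl12b model and Rpl34-ps1, control BM, SKO BMT and DKO BMT lie on the same side. Other genes split control BM from SKO BMT. The gene model Gm12191 was at 0, 141 and 152 TPM in control BM, 148 to 246 TPM in SKO BMT and 0 TPM in SKO yBM. Amd2 was at 2.35 to 8.89 TPM in control BM and at most 0.15 TPM in SKO BMT. Whether such a split adds to the differences from control BM was not tested.

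The 3 genes called against SKO yBM were Wnt7b, Amd2 and the gene model Gm12191, of which Wnt7b and Gm12191 were chosen for mention after their values were seen. Wnt7b was at 0.0489, 0.047 and 0.0127 TPM in SKO yBM, 0.0583, 0.17 and 0 TPM in SKO tumor and 0.0854, 0.0169 and 0.36 TPM in DKO BMT, all below the 1.22 to 2.40 TPM of SKO BMT. Its difference was 1.48 (SE 0.23) from SKO yBM (adjusted p = 0.0265), 1.43 from SKO tumor (adjusted p = 0.00928) and 1.33 from DKO BMT (adjusted p = 0.096). These levels are low, Wnt7b was tested only because the 3 SKO BMT libraries exceed 1 TPM, and with a pseudocount of 0.1 the adjusted p was 0.158 against SKO yBM and 0.197 against SKO tumor. It is not among the genes tested under a filter of 5 TPM. Amd2, a copy of the polyamine gene Amd1 that may share its reads, was at most 0.15 TPM in SKO BMT, at 10.4 to 19.6 TPM in SKO yBM and at 2.35 to 8.89 TPM in control BM. Its low level was not particular to SKO BMT: Amd2 was at most 0.34 TPM in DKO BMT and 0.22 TPM in DKO yBM. In SKO tumor and DKO tumor it was at 5.09 to 12.8 and 15.6 to 21.6 TPM. Against SKO tumor, the named calls were a rise of H2-T22, from 6.06 to 11.1 TPM to 60.8 to 112 TPM (3.29, adjusted p = 0.00928), and falls of Ctla2a, a cathepsin inhibitor, from 310 to 465 TPM to 42.8 to 62.2 TPM (-2.93, adjusted p = 0.00928), of Amd2 (-3.19) and of the second Myl12b model (-9.32). Ctla2a was not called with the replicate number as a block (adjusted p = 0.0594), and H2-T22 and Ctla2a were not called without SKO BMT 1 or SKO BMT 2 (adjusted p up to 0.0711).

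For 5 genes of the growth lists the interval of the difference from DKO BMT included 0. Myc was at 63.2 TPM ± 24 (SD, n = 3) in SKO BMT and at a mean of 74.9 TPM in DKO BMT, a difference of -0.28 (95% interval -1.59 to 1.03). Mcm7 differed by -0.09 (-1.11 to 0.92), Nop56 by -0.36 (-1.14 to 0.42), Ccnb1 by 0.10 (-1.15 to 1.34) and Psat1 by 0.32 (-0.72 to 1.36). Against SKO yBM, Myc differed by 0.05 (-1.27 to 1.36) and Mcm7 by 0.28 (-0.73 to 1.30). These intervals leave room for differences of more than 1 log2 unit in Myc in either direction. Because SKO BMT 2 and SKO BMT 3 are as low in Wwox as DKO BMT, the differences from DKO BMT do not compare the 2 genotypes cleanly.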

How the data were processed

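RNA-seq values of 37 libraries were deposited as TPM per Ensembl gene, of which 21 form set 2. Per the labels and the study's methods, the authors prepared stranded poly-A libraries, trimmed reads (Trim Galore 0.6.1 in the processing notes, another version in the methods), checked them with FastQC and quantified them with salmon. The notes name mm39. TPM values keep no read depth, so counting error is unknown and no count model was used. The 3 control columns could be matched to their group only.

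Symbols came from GENCODE vM21 (48246 of 51123 IDs matched). Genes at 1 TPM or more in at least 3 libraries (14458) were tested on log2(TPM + 1) with limma 3.58.1 (R 4.3.3, trended prior, Benjamini-Hochberg, 7 groups of 3), after a test on simulated data. Named genes were the 12 largest non-overlapping called rises and falls whose higher group averaged 5 TPM or more (5 per direction between knockout groups), the 3 smallest p in each gene list and the genes the study named. Unnamed gene models, pseudogenes and sex-linked genes were left out. Bone genes, promoter genes and other list members were added after their values were seen. The comparison, lists and rule were chosen with earlier results of these data known. Replicate numbers of SKO BMT and DKO BMT deviated together (correlations of same-numbered libraries 0.293, 0.291 and 0.381), those of SKO yBM and SKO tumor did not in every pair. Alternatives changed the pseudocount, filter, scaling, prior, libraries and block.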

Additional observations from a re-analysis of the deposited data

How the results depend on the processing

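The count of genes called between SKO BMT and control BM was 1931. It was 2925 after median-ratio scaling, 3447 after quantile normalization and 1006 with the compared groups alone, and it ranged from 1266 to 1668 with 1 library left out. It was 984 without both libraries labelled SKO BMT that are low in Wwox, a setting chosen after seeing the data. Of the 1931 genes, 1791 were shared with the median-ratio calls and 1842 with the quantile calls. Other pseudocounts, filters and priors and the removal of mitochondrial genes left the count within 1.5 times. Against SKO yBM the 3 calls became 1 with a pseudocount of 0.1 or without the trended prior, 16 with the compared groups alone, 12 without the 2 libraries low in Wwox, and 1 to 9 with 1 library left out. Against SKO tumor the 12 calls became 4 without those 2 libraries and 3 to 17 with 1 left out. Against DKO BMT the 0 calls became 1 with no filter, after median-ratio scaling, after quantile normalization or with the compared groups alone, 20 without those 2 libraries, and 0 to 11 with 1 left out.

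No paired analysis was possible for the comparison with control BM because the control columns, although numbered, could be matched to their group and not to single labelled samples. Whether their numbers deviate together with those of SKO BMT was not checked. For the knockout groups the replicate block, fitted without the controls, gave 4, 11 and 0 calls against SKO yBM, SKO tumor and DKO BMT, the same counts as that fit without the block.

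The sign turned in these cases. Wwox against control BM became 1.49 without the 2 libraries low in Wwox. Mylk ranged from -1.93 to 0.41 with 1 library left out, above 0 without SKO BMT 3, and was 0.74 without those 2 libraries. The bone genes were below 0 without SKO BMT 2: Col1a1 ranged from -0.52 to 2.18, Sp7 from -0.03 to 3.56 and Bglap from -1.28 to 3.74 with 1 library left out, and without the 2 libraries low in Wwox Col1a1 was -0.16 and Bglap -1.29. Against DKO BMT with 1 library left out, Myc ranged from -0.53 to 0.05 (above 0 without SKO BMT 1), Mcm7 from -0.40 to 0.21 (0.21 without SKO BMT 2 and 0.13 without DKO BMT 1), Ccnb1 from -0.47 to 0.53 (-0.47 without SKO BMT 1 and -0.43 without DKO BMT 3) and Psat1 from -0.24 to 0.76 (below 0 without DKO BMT 2). Without the libraries low in Wwox, Mcm7 was 0.53 and Psat1 -0.19 there. Against SKO yBM with 1 library left out, Myc ranged from -0.20 to 0.38 and Mcm7 from -0.03 to 0.59, and Myc was -0.02 without mitochondrial genes and -0.62 without the libraries low in Wwox. The cause was not tested. Of 125 named genes called against control BM, 79 were called in all 6 fits that left out 1 library, and 46 lost the call in at least 1. Over 154 gene results and their alternatives, 1908 values kept direction and side of the threshold, 382 lost the call and 19 gained it. Depth is unknown, and 3 libraries in a group limit each estimate.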
